A study of Danio rerio with 31 samples.

Results

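The genes described here belong by name to families known for writing, removing or maintaining methyl groups on DNA and histone lysines, or for removing acetyl groups from histones. Not every member has such an activity. They were chosen by name, as every gene ID whose Ensembl symbol begins with dnmt, tet1 to tet3, uhrf1, kdm1 to kdm8, kmt2, kmt5, setd, hdac and a digit, ezh1, ezh2, suz12, eed or ehmt. The rule found 75 of the 32520 gene IDs in the count tables. The symbols are those of the name table, many in human form, and 5 symbols (DNMT3A, KMT2C, SUZ12, KDM5B and KDM2B) are each carried by 2 IDs, 10 members in all, which are told apart here by ID. Reads that could belong to either copy of such a pair may have been lost or split in the counting.

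Adult whole brains of the zebrafish line TU were sequenced as mRNA libraries, each from 1 fish, in 31 runs of 24 fish. The F0 groups were 6 treated males, exposed to PCBs and PBDEs (polychlorinated biphenyls, polybrominated diphenyl ethers) as a mixture, and 6 control males. The F2 groups were unexposed descendants: 4 females of the treated line and 4 of the control line, and 2 males of the treated line and 2 of the control line. The dose, the age of the fish, and their families or tanks were not used here, so a difference between arms or lines cannot be told apart from a difference between families or tanks.

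DNA methylation marks cytosines, mostly before guanines. DNMT1 copies the mark to new DNA strands with the help of UHRF1, DNMT3 enzymes place it on unmarked DNA, and TET enzymes oxidise it on the way to its removal. On histone H3, methylation of lysine 4 by KMT2 and SETD1 enzymes marks promoters and enhancers of active genes, methylation of lysine 9 by SETDB1 and EHMT enzymes marks silent chromatin, and methylation of lysine 27 by Polycomb repressive complex 2 (PRC2) keeps developmental genes silent. KDM enzymes remove these marks and HDAC enzymes remove acetyl groups. In the brain, many of these enzymes are known for roles in neuron differentiation and in activity-dependent transcription.

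Gene counts summed to 12.2 to 34.1 M reads per fish. Levels are given per fish in CPM, counts per M reads of the TMM-scaled library. They are not divided by gene length, so they compare groups for a gene and not genes with each other. Changes are log2 fold changes from edgeR's quasi-likelihood test with their standard error (SE), and adjusted p-values are Benjamini-Hochberg values over all genes tested, with 0.05 as the threshold. The share of uniquely aligned reads assigned to no gene, called the no-gene share here, was 16.6 to 19.5% in treated F0 males and 19.9 to 21.4% in control F0 males. It was 18.7 to 20.8% in F2 females of the treated line and 21.6 to 23.5% in those of the control line, so it separated the arms in both sets without overlap. Treated F0 male 16 stood apart: its median absolute log2 distance from the other fish of its group was 0.388 over 16249 genes, against 0.17 to 0.237 in the other treated F0 males, and its members lay at a median of −0.323 from theirs. Calls of members in F0 males are also given with the no-gene share as a covariate. They are given as well without treated male 16 and control males 9 and 33, which earlier work on these data had set apart. Among markers of cell types, the 17 neuron IDs were all detected and summed to 8030 to 9685 CPM per fish. That sum does not show changes of single markers: in F0 males 3 of the 17 were called higher and 3 lower in treated brains, beside 11.4% of all genes called.

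In F0 males, 71 of the 75 members had enough reads to be tested, and 13 differed between treated and control brains, 7 higher and 6 lower in treated males. The background was 11.4% of 18057 genes tested, against 13 of 71 members (18.3%); by direction it was 6.32% for higher and 5.09% for lower genes. The members called higher were the H3K4 demethylases KDM5A and KDM5B (ENSDARG00000003098), the H3K27 demethylases KDM6A and kdm6al, the H3K9 demethylase KDM4B, the SET-domain protein KMT2E and the deacetylase HDAC1. The members called lower were TET2, the H3K4 methyltransferase kmt2bb, the PRC2 subunit SUZ12 (ENSDARG00000098924), SETD5, and the demethylases KDM6B and KDM7A. With the no-gene share in the model as a covariate, none of the 71 members and none of the 18057 genes passed. That share goes with the arm (squared correlation 0.667), and the part of each cannot be told apart. Without the 3 fish named above, 0 members and 42 genes passed. All 13 kept their sign without those fish, with adjusted p-values of 0.0611 to 0.262. The dnmt3bb.2, setd1bb, kmt5ab and hdac7b genes had too few reads for the test. In bulk brain RNA, fewer cells of a type and less RNA per cell cannot be told apart.

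**Figure D1:**
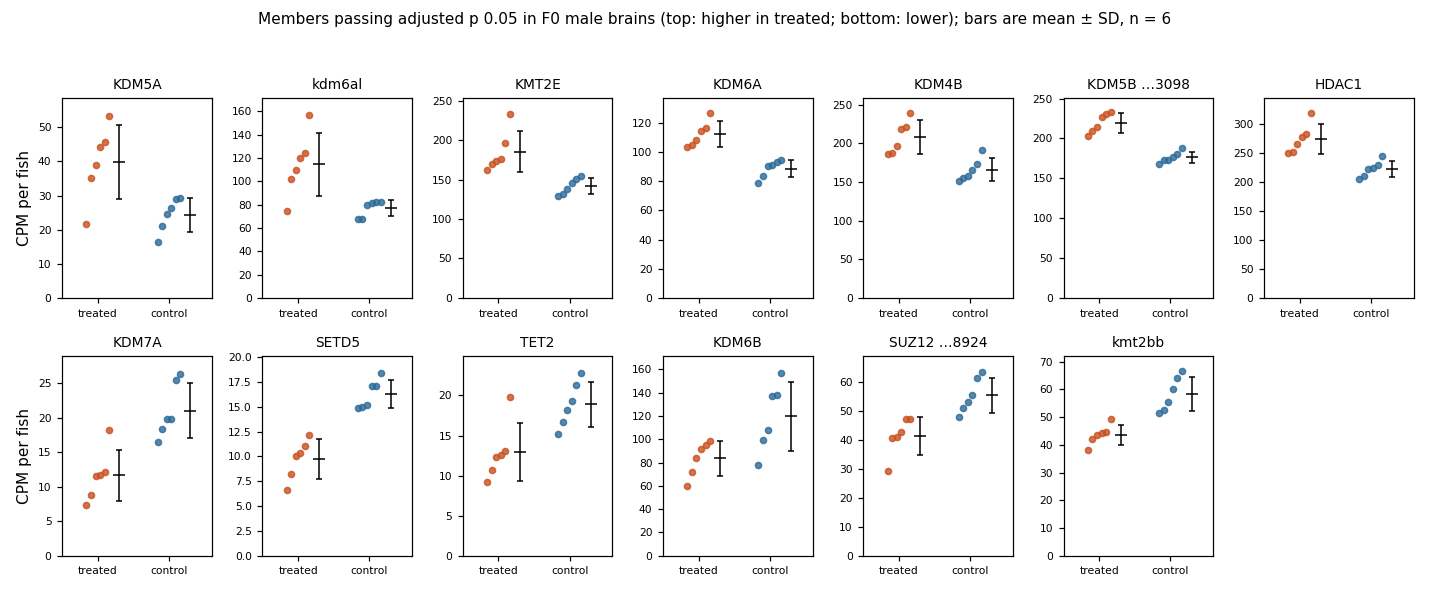
CPM per fish of the 13 members that passed an adjusted p of 0.05 in F0 males, with 6 treated fish left and 6 control fish right in each panel; bars are mean ± SD. The upper row holds members higher in treated males and the lower row members lower in treated males. Of the 13, 7 have no overlap between the groups, among them KDM6A and SETD5. The 13 were picked for differing between these fish, so that count adds no evidence. Over all 71 tested members 11.3% had no overlap, beside 5.59% of all genes.

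Of the DNA methyltransferases, none of 6 tested passed in F0 males. DNMT1, the maintenance enzyme, lay between 41.3 and 59.7 CPM (median 49.6) in treated males and between 40.8 and 61.0 CPM (median 49.0) in control males. The groups overlapped almost fully and the log2 change was 0.01 (SE 0.109, adjusted p = 0.946 in edgeR). The more highly counted DNMT3A copy, ENSDARG00000015566, lay between 122 and 164 CPM in treated males and between 137 and 160.3 CPM in control males, with a log2 change of −0.01 (SE 0.0831). The 95% intervals ran from −0.20 to 0.23 for DNMT1 and from −0.17 to 0.16 for that copy. The de novo enzyme gene dnmt3ba came closest to a call: it averaged 7.35 ± 2.11 CPM in treated males and 11.0 ± 1.79 CPM in control males (SD, n = 6 each; log2 change −0.59, SE 0.195, adjusted p = 0.0608). The dnmt3ba gene passed in DESeq2 (log2 change −0.59, SE 0.207, adjusted p = 0.0273). In edgeR it passed without treated male 38 (log2 change −0.73, SE 0.185, adjusted p = 0.0337) and in no other fit without 1 fish. The other DNMT3A copy, DNMT3B and dnmt3bb.3 stayed below 6 CPM in each F0 fish, with log2 changes of 0.06, −0.42 and −0.38. The dnmt3bb.2 gene had 35 reads over all 24 fish.

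All 3 TET genes had negative log2 changes in F0 males, and TET2 passed. TET2 lay between 9.25 and 19.8 CPM (median 12.4) in treated males and between 15.2 and 22.8 CPM (median 18.8) in control males. Treated male 2, at 19.8 CPM, was the highest of its group by far and was the only treated male above the control mean of 18.9 CPM. The log2 change of TET2 was −0.55 (SE 0.171, adjusted p = 0.0488), and −0.39 under the covariate. The TET2 call was lost in 11 of 12 fits that left out 1 fish, with adjusted p-values of 0.00869 to 0.109 over these fits. The tet3 gene lay between 66.1 and 119 CPM (median 109) in treated males and between 105 and 146 CPM (median 136) in control males (log2 change −0.33, SE 0.129, adjusted p = 0.103). It turned to 0.22 with the covariate. TET1 had at most 5.19 CPM in any F0 male and a log2 change of −0.98 (SE 0.442, adjusted p = 0.149), and UHRF1 averaged 1.11 ± 0.949 CPM in treated males and 1.13 ± 0.662 CPM in control males.

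**Figure D2:**
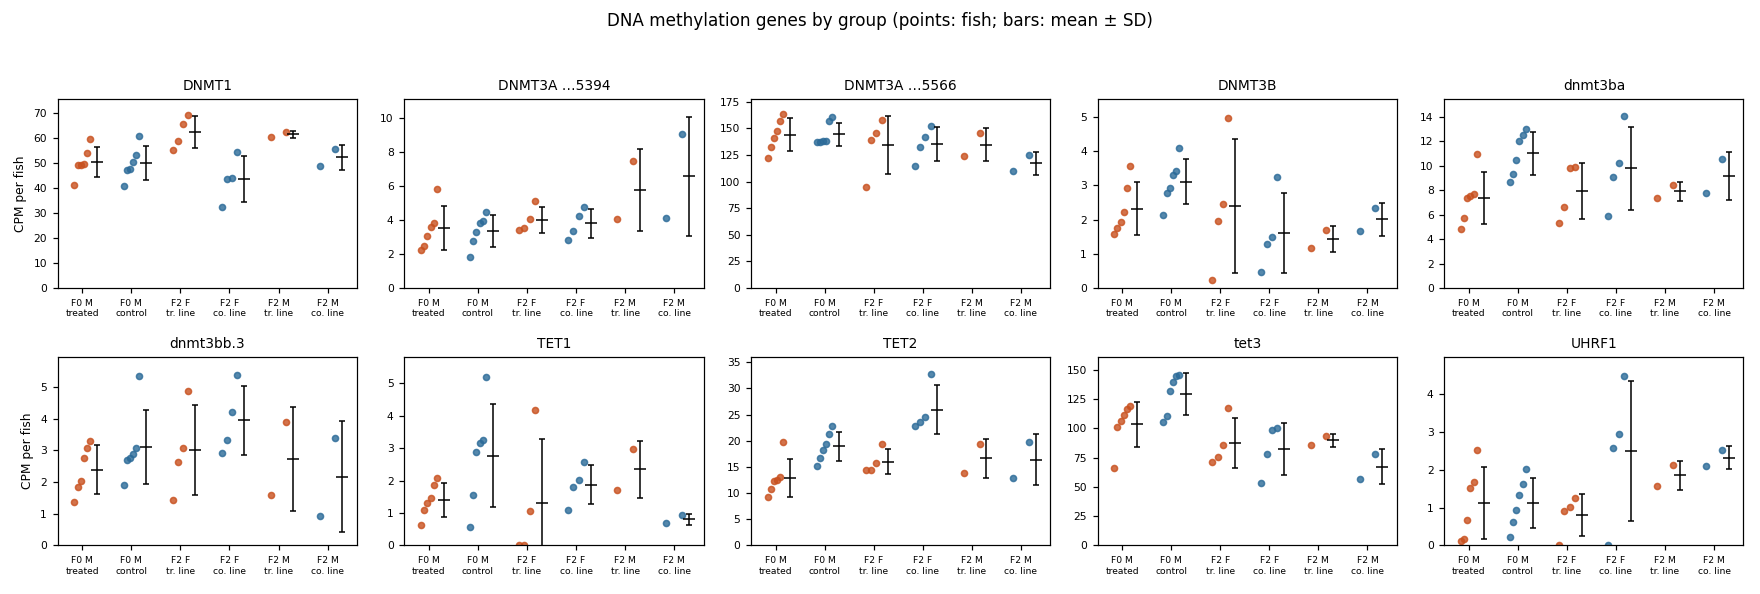
CPM per fish of 6 DNA methyltransferase genes, the 3 TET genes and UHRF1 in the 6 groups (M, male; F, female; tr. and co., treated and control); points are fish and bars are mean ± SD with n of 6, 6, 4, 4, 2 and 2. DNMT1 lies between 55.4 and 69.4 CPM in F2 females of the treated line and between 32.5 and 54.6 CPM in control-line females. Its F0 groups overlap. TET2 lies between 14.4 and 19.4 CPM in F2 females of the treated line and between 22.8 and 32.8 CPM in control-line females. Neither gene passed in F2 females (adjusted p = 0.472 and 0.493 in edgeR). The lines of F2 females lacked overlap in 4.17% of members, beside 3.80% of all genes.

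The genes classed with histone H3 lysine 4 held 4 of the 13 calls. Of 9 methyltransferases tested 1 was higher and 1 lower, and of 5 demethylases tested 2 were higher. Of all genes 6.32% were called higher and 5.09% lower. Whether calls gathered in a class was not tested. The methyltransferase class, formed by symbol, had 9 genes tested, with a median log2 change of −0.28 and 7 of 9 values negative. Its 1 lower call was kmt2bb. Its 1 higher call was KMT2E, which is in the class by name and is known for binding the mark. The only other positive value was that of setd1a (0.12), which did not pass. KMT2B genes encode enzymes that methylate H3K4 at promoters, and of the pair of zebrafish copies kmt2bb fell. The kmt2bb gene lay between 38.4 and 49.2 CPM (median 43.9) in treated males and between 51.5 and 66.5 CPM (median 57.7) in control males. The groups did not overlap, and the log2 change was −0.42 (SE 0.0906, adjusted p = 0.0173), with −0.21 under the covariate. Its paralog kmt2ba averaged 42.8 ± 8.52 CPM in treated males and 52.4 ± 5.68 CPM in control males (log2 change −0.29, adjusted p = 0.142). The kmt2a gene (−0.50, SE 0.228, adjusted p = 0.16) did not pass. SETD1B, KMT2D, setd1a and both KMT2C copies had log2 changes between −0.30 and 0.12 and did not pass either. KMT2E, a SET-domain protein known to bind methylated H3K4, rose: it lay between 162 and 234 CPM (median 176) in treated males and between 129.9 and 155 CPM (median 142) in control males. These groups did not overlap either (log2 change 0.39, SE 0.0937, adjusted p = 0.0223). Under the covariate KMT2E had a log2 change of 0.03, and 4 of 12 fits without 1 fish lost its call.

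Of the 5 demethylases of that lysine, 2 were called higher in treated F0 males, beside 6.32% of all genes. KDM5B (ENSDARG00000003098) lay between 203 and 233 CPM (median 221) in treated males and between 168 and 188 CPM (median 175) in control males. The groups did not overlap (log2 change 0.31, SE 0.0664, adjusted p = 0.0158), the value was 0.30 under the covariate and without the 3 fish, and the call held in all 12 fits that left out 1 fish. The second KDM5B copy, ENSDARG00000057093, averaged 221 ± 11.4 CPM in treated males and 201 ± 11.5 CPM in control males, with overlap (log2 change 0.14, adjusted p = 0.196). KDM5A lay between 21.6 and 53.4 CPM (median 41.6) in treated males and between 16.2 and 29.2 CPM (median 25.4) in control males. Treated male 2 was at 21.6 CPM, among the controls, and the other 5 lay above every control (log2 change 0.71, SE 0.192, adjusted p = 0.0328). The KDM5A call was lost in 8 of 12 fits without 1 fish, and its log2 change was 0.26 with the covariate. KDM1A, which removes H3K4 methylation in co-repressor complexes, averaged 291 ± 19.3 CPM in treated males and 253 ± 17.1 CPM in control males (log2 change 0.20, adjusted p = 0.0790), and kdm5c had a log2 change of −0.05.

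The genes of histone H3 lysine 27 split by enzyme. Of the 5 PRC2 core genes, 1 passed, beside 11.4% of all genes. SUZ12 (ENSDARG00000098924), a subunit that PRC2 needs for its activity, fell: it lay between 29.2 and 47.3 CPM (median 41.9) in treated males and between 48.0 and 63.3 CPM (median 54.2) in control males. The groups did not overlap (log2 change −0.42, SE 0.115, adjusted p = 0.0335). The log2 change was −0.03 with the covariate. Treated male 16 was the lowest fish, and without it alone the call stayed, while 6 of the other fits without 1 fish lost it. The second SUZ12 copy (ENSDARG00000070256) and the catalytic subunits ezh1 and EZH2 had log2 changes of −0.38, −0.31 and −0.21 with adjusted p-values of 0.282, 0.135 and 0.420. In these 3 genes the groups overlapped.

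EED, the PRC2 subunit that binds methylated H3K27, had the only positive change of the complex and did not pass in edgeR with runs summed. It stood at 31.8 to 56.0 CPM (median 46.0) in treated males. Among control males 5 lay between 19.98 and 24.8 CPM, and control male 31 lay at 50.2 CPM. The log2 change was 0.71 (SE 0.226, adjusted p = 0.0531 in edgeR). EED passed in DESeq2 (0.71, SE 0.225, adjusted p = 0.015) and in edgeR on the first run of each fish (0.76, SE 0.219, adjusted p = 0.0408). Without control male 31 the log2 change in edgeR was 0.998 (SE 0.152, adjusted p = 0.0308), a fit singled out after the values were seen. With the covariate it was 0.76 (SE 0.423, adjusted p = 0.864), and without the 3 fish 0.58 (SE 0.302).

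The enzymes that remove H3K27 methylation changed in both directions. KDM6A, which acts with the H3K4 methyltransferases of enhancers, lay between 103 and 127 CPM (median 112) in treated males and between 78.9 and 94.2 CPM (median 91.0) in control males, with no overlap (log2 change 0.34, SE 0.0767, adjusted p = 0.0187). Its log2 change was 0.34 with the covariate as well, and it passed in all 12 fits without 1 fish. The related kdm6al lay between 74.8 and 157 CPM (median 115) in treated males and between 67.7 and 81.9 CPM (median 80.5) in control males. Only treated male 2 fell within the control range (log2 change 0.58, SE 0.137, adjusted p = 0.0214; covariate fit 0.09), and 3 of 12 fits without 1 fish lost the call. KDM6B, an inducible H3K27 demethylase, was lower: it lay between 60.1 and 98.9 CPM (median 87.7) in treated males and between 77.6 and 157 CPM (median 122.9) in control males. The groups overlapped through control male 3 alone (log2 change −0.52, SE 0.16, adjusted p = 0.0484). The KDM6B call was lost in 11 of 12 fits without 1 fish. With the covariate its log2 change was small beside its SE (0.07, SE 0.228), so its sign there says little. Its paralog kdm6bb averaged 4.41 ± 3.21 CPM in treated males and 10.2 ± 3.77 CPM in control males (log2 change −1.22, SE 0.405, adjusted p = 0.0619).

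KDM7A, which removes methyl groups from H3K9 and H3K27, had the largest change of the 13. It lay between 7.39 and 18.3 CPM (median 11.6) in treated males and between 16.4 and 26.3 CPM (median 19.8) in control males. Treated male 2 alone reached the control range (log2 change −0.86, SE 0.195, adjusted p = 0.0195; covariate fit −0.21). Its paralog kdm7aa had a log2 change of −0.17 (SE 0.172). The KDM7A call was lost without control male 33, where the adjusted p was 0.0544.

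**Figure D3:**
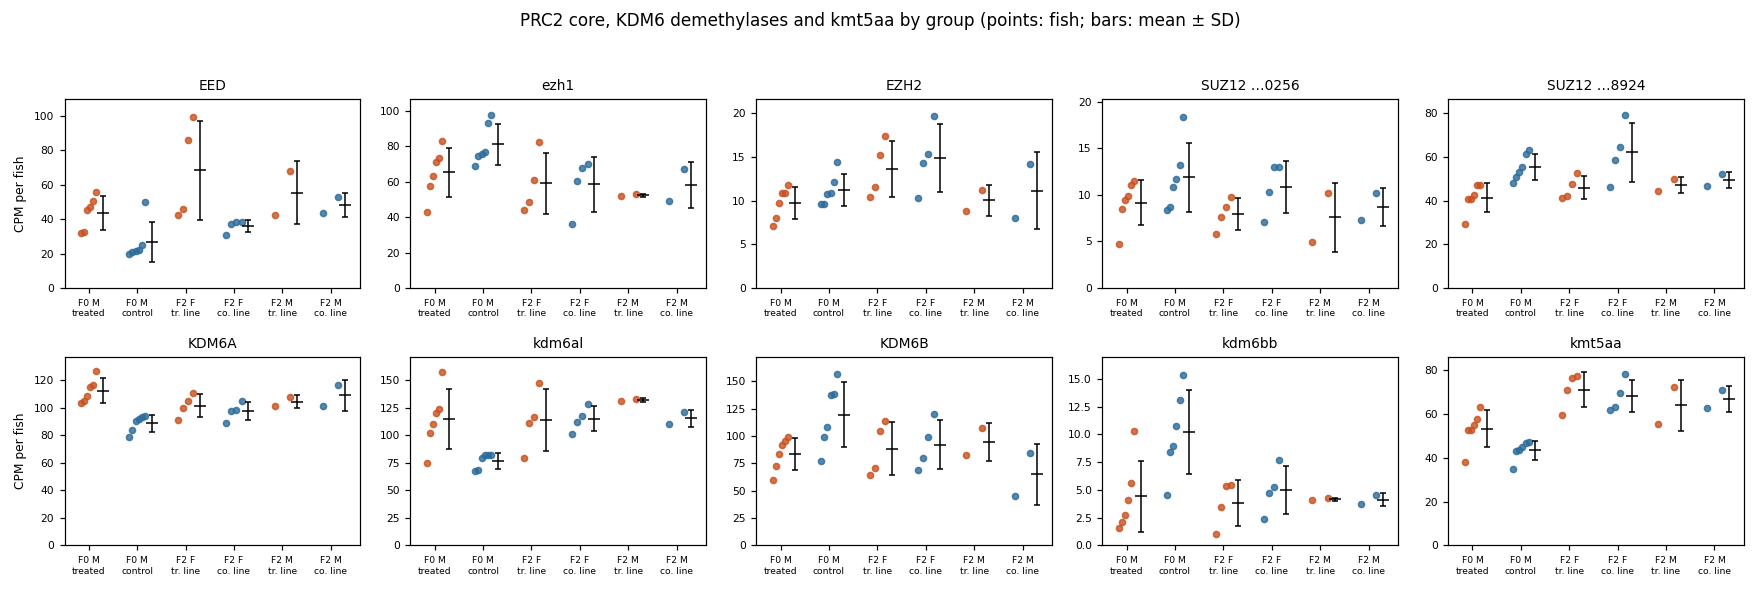
CPM per fish of the PRC2 core genes, the KDM6 demethylases and the H4K20 methyltransferase kmt5aa in the 6 groups; points are fish and bars are mean ± SD with n of 6, 6, 4, 4, 2 and 2. KDM6A and kdm6al are higher and KDM6B is lower in treated than in control F0 males, EED in control F0 male 31 stands at 50.2 CPM above the other controls, and kmt5aa is higher in both male F2 groups than in most F0 males.

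Of the 5 H3K9 methyltransferases none passed. Of the 10 demethylases of the KDM2, KDM3, KDM4 and KDM8 families, which act on H3K9 or H3K36, 1 passed, beside 11.4% of all genes. Among the methyltransferases, EHMT1 averaged 73.4 ± 7.89 CPM in treated males and 80.9 ± 4.07 CPM in control males, EHMT2 28.5 ± 4.43 CPM in treated males and 23.0 ± 3.61 CPM in control males, and SETDB1 73.8 ± 5.5 CPM in treated males and 67.1 ± 3.78 CPM in control males. Their adjusted p-values were 0.275, 0.128 and 0.254. The ehmt1a and setdb1a genes had log2 changes of −0.55 and −0.25, with adjusted p-values of 0.155 and 0.178. KDM4B, which removes H3K9 and H3K36 methylation, lay between 186 and 239 CPM (median 208) in treated males and between 151 and 192 CPM (median 162) in control males. The groups overlapped only through control male 3 at 192 CPM (log2 change 0.33, SE 0.0865, adjusted p = 0.0299; covariate fit 0.00). The KDM4B call was lost in 6 of 12 fits without 1 fish, with adjusted p-values up to 0.0748. KDM2B (ENSDARG00000036593), which recruits a Polycomb complex to unmethylated CpG islands, lay between 67.4 and 136 CPM in treated males and between 144 and 159 CPM in control males. It had no overlap but did not pass (log2 change −0.40, SE 0.13, adjusted p = 0.0555); treated male 16 was its lowest fish, and without it the log2 change was −0.28 and passed (SE 0.0693, adjusted p = 0.0209). Under the covariate the sign of that copy turned (0.12, SE 0.152). The other KDM2 and KDM3 genes, kdm4aa, kdm4ab, kdm4c and KDM8 had log2 changes between −0.24 and 0.26 and did not pass.

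SETD5, a SET-domain protein linked to chromatin regulation in neurons, was the member with the lowest p in F0 males. It lay between 6.64 and 12.1 CPM (median 10.2) in treated males and between 14.9 and 18.4 CPM (median 16.1) in control males. The groups did not overlap (log2 change −0.74, SE 0.15, adjusted p = 0.0155), and the call held in all 12 fits without 1 fish. With the covariate the log2 change was −0.30. The H3K36 methyltransferase setd2 had a log2 change of 0.04, the H4K20 methyltransferases KMT5B, kmt5aa and kmt5c had −0.07, 0.30 and −0.33, and none of these 4 passed. SETD3, which methylates actin, SETD4, SETD6, SETD7 and SETD9 did not pass either, with log2 changes between −1.08 and 0.14.

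Of the 11 HDAC genes tested 1 passed, beside 11.4% of all genes. HDAC1, the catalytic subunit of the main nuclear co-repressor complexes, lay between 249 and 318.5 CPM (median 271) in treated males and between 204 and 245 CPM (median 223) in control males. The groups did not overlap (log2 change 0.30, SE 0.0788, adjusted p = 0.0288; covariate fit 0.08). The HDAC1 call was lost in 6 of 12 fits without 1 fish, with adjusted p-values up to 0.0740. The class I enzymes hdac3 and HDAC8 had log2 changes of −0.25 and 0.23. Class IIa genes, whose products shuttle between nucleus and cytoplasm in neurons, went apart in sign: HDAC4, HDAC5 and HDAC7 had log2 changes of −0.57, −0.97 and 0.80 with adjusted p-values of 0.131, 0.0752 and 0.0719, and hdac9b had 0.07. The class IIb and IV genes HDAC6, HDAC10, HDAC11 and hdac12 had log2 changes between −0.19 and 0.30.

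**Figure D4:**
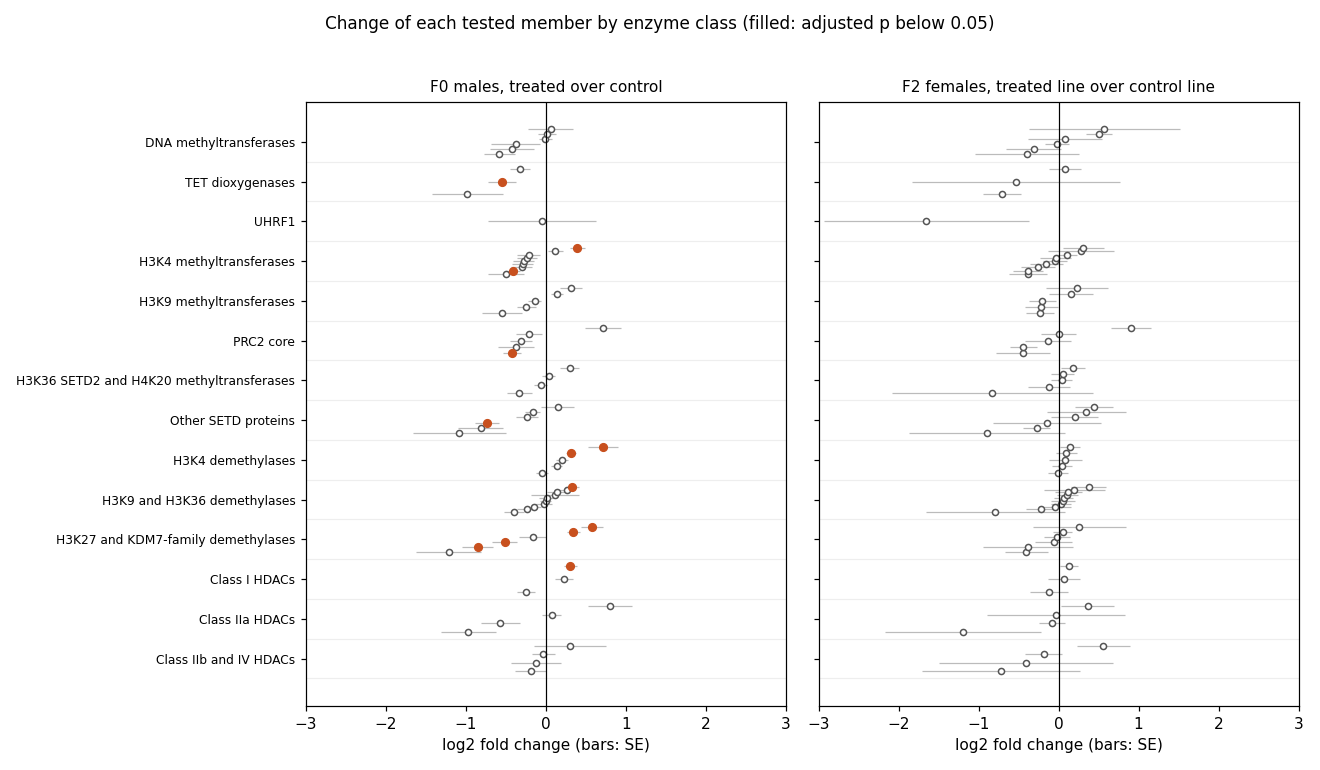
Log2 fold change (points) with SE (bars) of every tested member by enzyme class, for F0 males, treated over control (left, 71 members) and F2 females, treated line over control line (right, 72 members). Filled points passed an adjusted p of 0.05: there are 13 in F0 males and 0 in F2 females.

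Over the 71 members the median log2 change in F0 males was −0.15, with 45 negative and 26 positive values, beside a median of −0.02 over all genes tested. With the no-gene share as a covariate the median was 0.12, with 56 positive values, beside 0.03 over all genes. Without the 3 fish it was −0.07, beside −0.01. The direction of the members as a set therefore depended on the fit. At an unadjusted p below 0.05 there were 34 members (47.9%), beside 29.6% of all genes, and the groups did not overlap in 8 members (11.3%), beside 5.59% of all genes. SETD5, KDM5B (ENSDARG00000003098), kmt2bb and KDM6A were called whichever fish was left out. Of these, KDM6A had log2 changes of 0.34 with the covariate and 0.28 without the 3 fish, and KDM5B had 0.30 in both, although neither passed there. SETD5 had −0.30 with the covariate and −0.66 without the 3 fish, and kmt2bb had −0.21 and −0.44 in those fits.

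**Figure D5:**
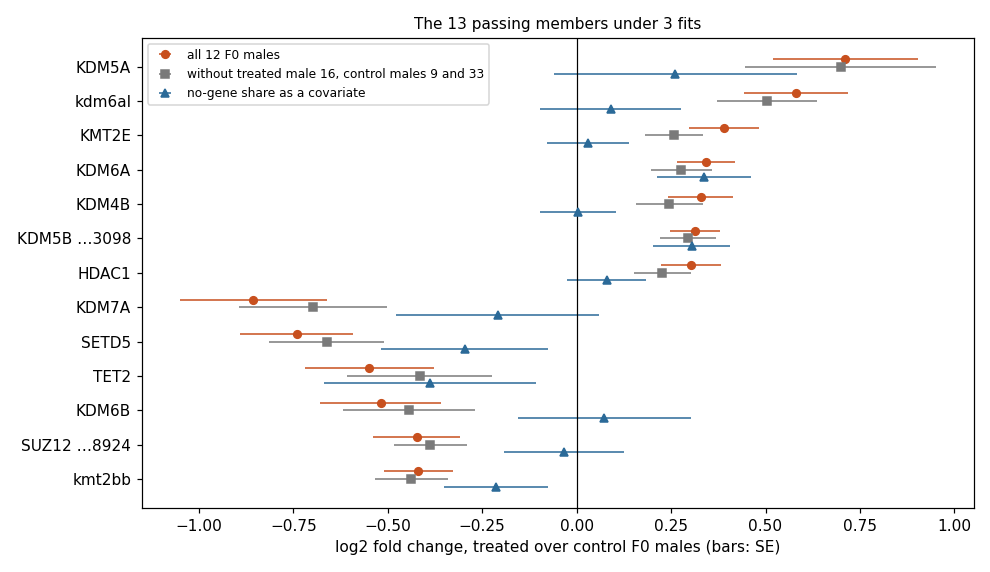
Log2 fold change (treated over control F0 males) and SE of the 13 passing members with all 12 males, without treated male 16 and control males 9 and 33, and with the no-gene share as a covariate. KDM5B and KDM6A lie between 0.28 and 0.34 in all 3 fits. With the covariate KMT2E, KDM4B, SUZ12, KDM6B, HDAC1 and kdm6al lie near 0, where a sign says little.

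Proliferating-cell markers, which matter here because DNMT1, UHRF1 and EZH2 are known to be highest in dividing cells, summed to 157 to 268 CPM in treated F0 males and 114 to 203 CPM in control F0 males. Of 17 such markers tested 1 was called higher, beside 6.32% of all genes, and their median log2 change was 0.30. Radial glia markers had 2 of 12 called higher (median 0.29) and summed to 5954 to 7734 CPM in treated and 4941 to 6531 CPM in control F0 males. Meninges markers had 1 of 7 called higher (median 0.33) and endothelium markers 1 of 8 (median −0.095). No oligodendrocyte or microglia marker was called, with medians of 0.23 and −0.28. Photoreceptor markers, from retina or pineal gland, summed to 356 to 645 CPM in treated F0 males. They summed to 16.0 CPM in control male 9, 9.55 CPM in control male 33 and 299 to 552 CPM in the other control males. Pineal markers summed to 10.4 and 11.7 CPM in control males 9 and 33 and to 69.8 to 95.2 CPM in the other control males. Control males 9 and 33 are among the fish left out in the fit without 3 fish. In F2 females photoreceptor markers summed to 29.8 to 1045 CPM in the treated line and 15.7 to 342 CPM in the control line. None of the 19 tested was called there. The part of these markers in the results of the members was not tested.

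In F2 females, 0 of 72 members differed between the treated and the control line in edgeR, beside 0% of 19463 genes. DESeq2 called 16 genes and 0 members there, but gave no adjusted p for 29 of the 72 members. At an unadjusted p below 0.05 there were 4 members (5.56%), beside 7.65% of all genes. The 3 members with the lowest p were EED, DNMT1 and TET2, and they were also the members whose 4 treated-line fish did not overlap the 4 control-line fish (4.17% of members, beside 3.80% of all genes). EED stood at 42.3, 86.0, 45.6 and 99.0 CPM in females of the treated line and at 31.0, 38.2, 38.1 and 37.2 CPM in those of the control line. The treated-line fish fell into a lower and a higher pair (log2 change 0.91, SE 0.25, adjusted p = 0.465). DNMT1 stood at 69.4, 65.7, 55.4 and 58.8 CPM in females of the treated line and at 43.7, 32.5, 43.9 and 54.6 CPM in those of the control line. Each treated-line female lay above each control-line female, the closest at 55.4 against 54.6 CPM (log2 change 0.51, SE 0.16, adjusted p = 0.472). TET2 stood at 15.7, 19.4, 14.4 and 14.4 CPM in females of the treated line and at 22.8, 32.8, 23.6 and 24.5 CPM in those of the control line (log2 change −0.71, SE 0.233, adjusted p = 0.493). With the no-gene share as a covariate the log2 changes were 0.55 (SE 0.427) for EED, 0.50 (SE 0.258) for DNMT1 and −0.39 (SE 0.373) for TET2; the share goes with the line (squared correlation 0.759) and the part of each cannot be told apart.

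Members called in F0 males were not called in F2 females. SUZ12 (ENSDARG00000098924) averaged 46.0 ± 5.15 CPM in the treated line and 62.2 ± 13.6 CPM in the control line (SD, n = 4 each). Its log2 change was −0.44 (SE 0.166, adjusted p = 0.555 in edgeR). In F0 males its −0.42 shrank with the no-gene share as a covariate. That share also separated the lines of F2 females, so its part in these values cannot be told apart. KDM6A averaged 102 ± 8.24 CPM in the treated line and 97.3 ± 6.61 CPM in the control line, and kdm6al averaged 114 ± 28.2 CPM in the treated line and 115 ± 11.4 CPM in the control line. HDAC1 averaged 292 ± 25.9 CPM in the treated line and 267 ± 18.4 CPM in the control line. SETD5, the member with the lowest p in F0 males, stood at 15.9 CPM in treated-line female 6 and at 3.66 to 4.97 CPM in the other 3, against 2.93 to 8.92 CPM in the control line. The H3K4 demethylase KDM5B (ENSDARG00000003098) averaged 205 ± 15.0 CPM in the treated line and 191 ± 36.2 CPM in the control line. KDM6B averaged 88.4 ± 24.2 CPM in the treated line and 92.1 ± 22.6 CPM in the control line.

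Of the DNA methylation genes other than DNMT1 and TET2, the DNMT3A copy ENSDARG00000015566 averaged 134 ± 27.5 CPM in F2 females of the treated line and 135 ± 16.2 CPM in those of the control line (log2 change −0.02, SE 0.152). The tet3 gene averaged 87.4 ± 21.0 CPM in the treated line and 82.6 ± 22.2 CPM in the control line (log2 change 0.07, SE 0.2). UHRF1 was low in all fish, at 0.796 ± 0.55 CPM in the treated line and 2.49 ± 1.85 CPM in the control line, and its log2 change of −1.65 had an SE of 1.28. The median log2 change over the 72 members was −0.02, and so was the median over all genes. The 25 enzymes that were followed in each comparison (DNMT, TET, UHRF1 and PRC2 genes, KDM1A, KDM5B, KDM6B, SETDB1, EHMT1, EHMT2, HDAC1, hdac3 and HDAC4) had log2 changes between −1.65 (UHRF1) and 0.91 (EED).

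Whether the line difference of F2 females differed from the exposure difference of F0 males was tested as an interaction over all 24 fish, and 0 of 73 members passed (10 at an unadjusted p below 0.05, 13.7% beside 11.6% of all genes; 0 in DESeq2; 0.00474% of all genes passed). Sex and generation both change in this contrast. The lowest p-values were those of kdm6al, DNMT1 and SETD3, with differences of −0.59 (SE 0.218, adjusted p = 0.342), 0.50 (SE 0.184, adjusted p = 0.342) and 0.69 (SE 0.272, adjusted p = 0.367) on the log2 scale. The absence of a call does not show that the members responded alike. The 95% interval of the DNMT1 difference ran from 0.14 to 0.86, without adjustment for the 73 members tested. DNMT1 was named for its low p, so this interval adds no evidence of a difference. The 25 followed enzymes had differences between −1.61 (UHRF1) and 1.002 (DNMT3B).

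In F2 males, with 2 fish of each line, 0 of 72 members passed in edgeR, beside 0% of 19463 genes, and 0 in DESeq2, which called 6 genes. At an unadjusted p below 0.05 there were 2 members (2.78%), beside 1.40% of all genes. KMT2E stood at 185 and 205 CPM in males of the treated line and at 159 and 135 CPM in those of the control line (log2 change 0.39, SE 0.18, adjusted p = 1). KMT5B, which adds methyl groups to H4K20, stood at 73.5 and 70.4 CPM in the treated line and at 47.6 and 55.9 CPM in the control line (log2 change 0.46, SE 0.215). KDM6B stood at 82.6 and 107 CPM in the treated line and at 45.5 and 84.5 CPM in the control line (log2 change 0.53, SE 0.331), opposite in sign to its −0.52 in F0 males, a difference that was not tested. DNMT1 stood at 62.4 and 60.6 CPM in treated-line males and at 48.8 and 55.8 CPM in control-line males, and TET2 at 19.3 and 13.9 CPM in treated-line males and at 12.9 and 19.8 CPM in control-line males. Groups of 2 fish did not overlap in 23 of 72 members (31.9%), a share below the 38.8% of all genes. The followed enzymes had log2 changes between −0.51 (DNMT3B) and 1.51 (TET1, at 2.97 and 1.71 CPM in the treated line and 0.684 and 0.928 CPM in the control line). The line differences of females and males differed in 0 of 72 members in the interaction test (0 in DESeq2 and 0 at an unadjusted p below 0.05, beside 0% and 1.50% of all genes in edgeR), and the lowest p-values were those of kmt2ba, TET2 and EED, with differences of −0.63 (SE 0.326), −0.71 (SE 0.403) and 0.73 (SE 0.432). In that test the followed enzymes had differences between −2.05 (TET1) and 1.08 (DNMT3B).

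Between the sexes of F2 fish, 0 of 72 members passed in edgeR, beside 0.0154% of genes, 0.00514% higher and 0.0103% lower in females. DESeq2 called 25 genes and 0 members, but gave no adjusted p for 25 of the 72 members. At an unadjusted p below 0.05 there were 2 members (2.78%), beside 5.05% of all genes, and the sexes failed to overlap in 0 members, beside 0.596% of genes. KDM7A averaged 14.7 ± 3.58 CPM in 8 females and 9.92 ± 1.60 CPM in 4 males (log2 change 0.56, SE 0.237, adjusted p = 0.944). The setd2 gene averaged 97.5 ± 10.3 CPM in females and 82.3 ± 3.30 CPM in males (log2 change 0.25, SE 0.114, adjusted p = 0.976). KDM4B averaged 176 ± 16.5 CPM in females and 202 ± 16.2 CPM in males (log2 change −0.19, SE 0.1). These 3 had the lowest p-values. The 25 followed enzymes had log2 changes between −0.64 and 0.51, and 0 of them had an unadjusted p below 0.05.

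Between generations, 3 of 73 members passed in males (4.11%, beside 4.28% of 21082 genes), 1 higher (2.24% of all genes) and 2 lower (2.04%) in F2 males. At an unadjusted p below 0.05 there were 22 members (30.1%), beside 20.8% of all genes. The share called was near that of all genes, and generation cannot be told apart from age, rearing or library preparation. Among cell type markers, 3 of 12 for microglia were called higher in F2 males and 2 of 17 for neurons lower. Oligodendrocyte (of 10), radial glia (of 13) and muscle (of 13) markers had 1 higher each. The part of these markers in the calls below was not tested. The kmt5aa gene, which encodes an H4K20 methyltransferase active around cell division, stood at 72.1 and 55.5 CPM in treated-line and 71.0 and 62.7 CPM in control-line F2 males, and lay between 34.8 and 63.3 CPM in the 12 F0 males (log2 change 0.44, SE 0.113, adjusted p = 0.0289). KMT2C (ENSDARG00000075560), an enhancer H3K4 methyltransferase, stood at 35.2 and 32.9 CPM in treated-line and 27.7 and 32.1 CPM in control-line F2 males and averaged 48.0 ± 8.89 CPM in F0 males (log2 change −0.59, SE 0.156, adjusted p = 0.0324). The tet3 gene stood at 93.5 and 85.8 CPM in treated-line and 56.5 and 77.8 CPM in control-line F2 males and averaged 116 ± 22.4 CPM in F0 males (log2 change −0.58, SE 0.159, adjusted p = 0.0367). For each of the 3 all 4 F2 males lay on the same side of the F0 mean, yet the ranges overlapped. In KMT2C and tet3 the overlap came from treated F0 male 16 alone, at 30.1 and 66.1 CPM, and in kmt5aa from treated F0 males 16 and 36, so that 0 members lacked overlap (1.20% of all genes did). Each of these calls was lost when any of the 4 F2 males was left out. The tet3 call was lost in 11 of 16 fits without 1 fish, also without treated F0 males 2, 10, 36 and 38 and control F0 males 25, 31 and 33. The KMT2C call was lost in 8 of 16, also without treated F0 males 2, 10 and 36 and control F0 male 33. Without treated F0 male 16 there were 12 calls. Among the 25 followed enzymes 6 had an unadjusted p below 0.05 and tet3 passed. With the covariate the 3 members stayed called, at log2 changes of 0.45, −0.58 and −0.58.

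Where 2 IDs share a symbol, the log2 ratio of the copies within a fish was compared by exact two-sided permutation tests, 10 in all. The KDM2B ratio (ENSDARG00000036593 over ENSDARG00000046010) was 1.02 ± 0.091 in treated and 1.19 ± 0.088 in control F0 males (SD, n = 6 each), a difference of −0.17 (exact p = 0.00433, adjusted over the 10 tests 0.0433). Leaving out 1 fish gave adjusted values of 0.0433 to 0.0866. With 1 fish fewer an exact p moves in coarse steps, so such a fit could pass only near the smallest p possible. The KDM2B ratio was not tested with the no-gene share as a covariate, nor without the 3 fish set apart. Treated male 16, with the lowest share of the F0 males (16.6%), had the lowest ratio (0.866). Control male 25, with the highest share (21.4%), had the highest ratio (1.36). Treated male 2, with the highest share of its group (19.5%), had a ratio of 1.04. The part of the share was not tested. The KDM5B ratio (ENSDARG00000003098 over ENSDARG00000057093) was −0.01 ± 0.11 in treated and −0.19 ± 0.092 in control F0 males, a difference of 0.18 (exact p = 0.013, adjusted 0.0649). The ratios of the DNMT3A, KMT2C and SUZ12 copies had adjusted values of 1 in F0 males. In F2 females the KDM2B ratio was 1.40 ± 0.231 in the treated and 1.03 ± 0.162 in the control line (n = 4 each, exact p = 0.0571, adjusted 0.191). This difference was opposite in sign to that of F0 males. With 4 fish a line an exact p cannot get very small, so a single F2 female ratio could hardly pass the adjustment over the 10 tests.

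The partners of these enzymes were taken as 10 lists of 156 IDs, 154 of them tested. In F0 males 9 were higher and 13 lower (14.3%, beside 11.4% of all genes), with a median log2 change of −0.01. Other histone lysine methyltransferases had 0 higher and 4 lower of 16, with a median log2 change of −0.28. The partners of H3K4 methyltransferases (COMPASS) had 2 higher and 1 lower of 13, with a median of 0.17. PRC2 accessory and PRC1 genes had 2 higher and 2 lower of 24, methyl-CpG readers and cytosine turnover genes 1 higher and 2 lower of 22, HDAC co-repressors 1 higher and 2 lower of 24, and sirtuins 0 higher and 1 lower of 7. Methyl donor genes had 1 higher of 18, acetyltransferases 1 of 14 and arginine methyltransferases 1 of 8, with none lower, and heterochromatin readers 0 higher and 1 lower of 8. The lowest adjusted p-values were those of the heterochromatin protein CBX1 (ENSDARG00000004189, 1 of 2 IDs with that symbol; −0.55, SE 0.104, adjusted p = 0.015), the nucleosome remodeller chd4b (−0.77, SE 0.13, adjusted p = 0.015) and the Polycomb reader cbx7a (−0.47, SE 0.0983, adjusted p = 0.0158). None of the 3 passed with the covariate. In F2 females and F2 males 0 of the partner genes passed. Between F2 and F0 males 4 were higher and 6 lower (6.49%, beside 4.28% of all genes), with the lowest adjusted p-values for CHD3 (−1.22, SE 0.28, adjusted p = 0.0199), zbtb38 (−1.19, SE 0.293, adjusted p = 0.0243) and kat7a (−0.72, SE 0.178, adjusted p = 0.0256).

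Spread between fish of a group is given as the coefficient of variation, by level. Among members of at least 20 CPM the median coefficient of variation was 14.1% in treated F0 males (43 members, beside 14.8% over 6832 genes) and 9.60% in control F0 males (45 members, beside 11.0%). It was 16.1% in F2 females of the treated line (beside 18.4% over all genes of that level) and 16.8% in those of the control line (beside 15.4%), with 44 members each. Between 5 and 20 CPM it was 27.1% in treated F0 males (beside 23.4%), 16.4% in control F0 males (beside 20.3%), 26.6% in treated-line F2 females (beside 36.5%) and 25.9% in control-line F2 females (beside 29.1%). Under 5 CPM the members' median was below that of all genes in each of these 4 groups, for example 71.9% beside 97.6% in treated-line F2 females and 46.5% beside 76.7% in control-line F2 females.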

How the data were processed

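The submitters' processing notes name the build GRCz11 and the tools HTSeq 0.11.2, STAR 2.7, cutadapt 2.1, bcl2fastq and DESeq2 1.24.0, without saying how each was run. The deposited values are raw read counts per Ensembl gene ID, 1 table per run; the strand setting of the counting is not given in the sources used here. Reads of a gene and of an overlapping antisense gene may therefore be mixed. Rows that name no gene were kept out of library sizes and tests: the no-gene share was 16.6 to 23.5% of uniquely aligned reads, and reads aligned at several places 5.98 to 28.0%. Runs of the same fish differed by little more than sampling noise (chi-square per degree of freedom 1.03 to 1.19 in 7 fish, against 18.3 to 115 between fish of a group) and were summed.

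Each fish had 12.2 to 34.1 M reads on genes, with F2 males of the treated line the shallowest (12.2 to 15.7 M). Control-line F2 males had 16.6 to 24.7 M. Counts were tested with edgeR 4.0.16 in R 4.3.3 (TMM scaling, filterByExpr with a minimum count of 10, robust quasi-likelihood fit, Benjamini-Hochberg over all genes tested, threshold 0.05). F0 males were fitted alone, F2 fish in 4 groups, and the generation contrast and the F2-against-F0 interaction in all 24 fish. The SE is the absolute log2 change over the square root of the F statistic. Pair ratios used a pseudocount of 0.1 CPM. Alternatives were DESeq2 1.42.0, its size factors, no filter, no robust fit, the first run of each fish, other samples in the fit, the no-gene share as a covariate, and leaving out fish. Whether fish of a group came from separate tanks or families was not used here, so p-values measure the spread between fish only. The fitting code was tested on simulated data.

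Members were chosen by symbol. Named in each comparison were those with an adjusted p below 0.05, where fewer than 3 passed the 3 with the lowest p, and 26 IDs of followed enzymes where tested (given as a range outside the F0 male comparison, with examples). For F0 males the other members that did not pass are given singly or within a range, to account for every member there. In the other comparisons they are not all given. The kdm6bb and KDM2B genes, EED without 1 fish, values without 1 fish beside them and the paralogs of called genes were singled out after their values were seen. Up to 3 partner genes were named per comparison, by lowest adjusted p. The members, the partner lists and the marker lists were chosen with earlier results of these data known. No sequences, coordinates or gene lengths are used here.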

Additional observations from a re-analysis of the deposited data

Results flagged for a closer look

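In each group of 4 or 6 fish the highest and lowest fish of the members described by name were compared with the rest of the group by Dixon's ratio. Of 159 groups examined 15 held a fish past the 95% critical value, and chance alone flags about 1 in 20. Values are CPM of the fish, each with that of the nearest other fish of its group.

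Treated F0 male 16 was the fish past the critical value, as the lowest of its group, in 4 members: SUZ12 (ENSDARG00000098924) at 29.21 against 40.76, KMT5B at 58.52 against 73.11, tet3 at 66.05 against 101 and EHMT1 at 57.88 against 73.03. The same fish had the lowest no-gene share (16.6%), and the part of that share in these values was not tested.

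F2 female 6 of the treated line stood apart in 3 members, highest in SETD5 at 15.87 against 4.968 and in kmt2bb at 63.93 against 38.29, and lowest in EHMT2 at 12.2 against 31.96. This fish also lay farthest from its group over all genes, with a median absolute log2 distance of 0.488 among F2 female values of 0.271 to 0.488.

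EED held 2 such fish, control F0 male 31, highest at 50.18 against 24.75, and F2 control-line female 11, lowest at 30.97 against 37.18. TET2 was highest in treated F0 male 2 at 19.76 against 13.04. That fish had the highest no-gene share of the treated F0 males (19.5%), and the part of that share in its values was not tested. SETDB1 was lowest in treated F0 male 36 at 63.13 against 73.81. Control F0 male 25 was lowest in kmt5aa at 34.75 against 43.06 and highest in dnmt3bb.3 at 5.334 against 3.07. The kmt2ba gene was lowest in F2 control-line female 21 at 31.04 against 48.93. The dnmt3bb.2 gene had 0.1805 CPM in F2 control-line female 31 and 0 in the other 3 fish of that group.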

How the results depend on the processing

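The count of 13 members in F0 males was 21 in DESeq2, 0 with the no-gene share as a covariate, 0 without treated male 16 and control males 9 and 33, and 4 to 17 when 1 fish was left out. It was lowest without control male 33 (4), treated male 24 (5), control male 25 (5) and control male 9 (7), and 8 without treated male 36. The highest count (17) came without treated male 2. KDM6B turned to 0.0736 under the covariate, and the other 12 called members kept their sign there. KDM6B, KMT2E, KDM4B, SUZ12, HDAC1 and kdm6al lay near 0 in that fit, where a sign says little. None of the 13 passed. The cause was not tested. Besides the 13, DESeq2 called dnmt3ba, EED, KDM1A, kdm6bb, KDM2B (ENSDARG00000036593), SETD9, HDAC5 and HDAC7. All 13 passed in DESeq2 and with its size factors, 12 with the first run, 11 without the filter and 11 without the robust fit, and 9 with all 24 fish in the fit. Of the 3 calls between F2 and F0 males all passed in these fits, while the count was 11 in DESeq2, 5 with the covariate, 9 without the 3 fish (an alternative chosen after seeing the data) and 0 to 12 when 1 fish was left out, with 12 without treated F0 male 16, 1 without treated F0 male 2, 10 or 36 or control F0 male 33, and 0 without any of the 4 F2 males. The other comparisons had 0 members in every alternative run, though DESeq2 gave no adjusted p for 29 members in F2 females and 25 between the sexes (1 in F0 males and 2 between generations). The KDM2B pair ratio passed in 3 of 12 fits without 1 F0 male, where an exact p moves in coarse steps and a lost call says little. No paired analysis was possible because the fish numbers only name fish and the arms compared share none within a generation. With 2 fish a group in F2 males and levels below 6 CPM in several DNMT, TET and UHRF1 genes, changes of these could be measured only with wide intervals.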
